A study of Mus musculus with 3 samples.

Results

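The genes described here are 10 regulators of alternative splicing: Esrp1 and Esrp2, which are restricted to epithelia, Rbm47, known from epithelia and gut, and Rbfox1, Rbfox2, Ptbp1, Ptbp2, Mbnl1, Mbnl2 and Qk, which are broadly used or better known from mesenchyme, muscle or neurons. They were chosen by name. All 10 were measured, by 13 of the 35557 probe sets of the array, out of 19938 genes with a probe set of a single symbol. The samples form 1 group of 3 Affymetrix arrays. Each array holds ureteric tip cells of 1 ureteric bud, not pooled, from CD-1 embryos at 10.5 days post coitum (Theiler stage 18) that carry the transgene Tg(Hoxb7-EGFP)33Cos, and the sex is given as unknown. All 3 samples carry this transgene, which expresses green fluorescent protein from regulatory DNA of Hoxb7, a gene active in the duct and bud. The cells were trypsinized and sorted by fluorescence, so a sample is a sorted fraction of 1 bud. The labels do not say whether the buds came from different embryos, so no p-value covers more than the spread between these 3 samples. For a gene with 1 identical value on all 3 arrays, the p-value does not measure a spread of that gene. With 1 group there is no comparison between conditions, and the test is of each gene's signal against the background of its array.

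Most transcripts of a mammalian gene can be spliced in several ways, and RNA-binding proteins decide which exons are kept. The ESRP proteins bind near exons used by epithelia, such as the epithelial exon of the fibroblast growth factor receptor gene Fgfr2, and promote the epithelial forms. RBFOX, PTBP, MBNL and QK proteins act in many tissues and shift exon use as cells become neurons, muscle or mesenchyme. The ureteric bud is an epithelium that grows out of the nephric duct and branches into the collecting system of the kidney.

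Background was the 95th percentile of 1035 olfactory receptor probe sets, and lay at 5.40, 5.45 and 5.41 log2 on arrays 1, 2 and 3. The array medians were 5.47, 5.50 and 5.48 log2. Nephric duct and bud markers, which the label calls for, were above background in 11 of 11, with the GDNF receptor gene Ret at 8.69, 8.35 and 8.18 log2 and its co-receptor gene Gfra1 at 8.58, 8.22 and 7.85. Metanephric mesenchyme markers were above background in 3 of 9 (Sall1, Cited1 and Wt1), with Six2 and Eya1 not among them. Endothelial markers were above background in 7 of 10, without Kdr, Esam and Sox17. They had their lowest value on array 2 in 10 of 10, with list medians of 6.29, 5.78 and 6.63 log2 on arrays 1, 2 and 3. Kdr lay 0.92, 0.10 and 1.63 log2 above the background of arrays 1, 2 and 3. It missed the threshold over all 3 arrays (limma, adjusted p = 0.055) but passed when any 1 of them was left out. Esam passed without array 1 or array 2, and Sox17 without array 1. In the fits without array 1 and without array 3, limma's prior gave every gene 1 common SD, 0.183 and 0.180 log2. A pass or a lost call in those fits therefore does not measure the spread of the gene itself. Erythroid markers were above in 3 of 7 (Hba-x, Alas2 and Slc4a1, and not Hbb-y, Hbb-bh1, Gata1 and Klf1), with list medians of 5.83, 5.48 and 5.64 log2. The embryonic globin gene Hbb-y lay 3.46 and 3.11 log2 above the background of arrays 1 and 3 and 0.02 log2 above that of array 2. It did not pass the test over all 3 arrays (limma, adjusted p = 0.053) but passed when any 1 of them was left out, and Hba-x lay 2.58, 0.42 and 1.98 log2 above background. Leukocyte markers were above in 3 of 6 (Cd68, Cx3cr1 and C1qc, and not Ptprc, Csf1r and Adgre1). Neuron and neural crest markers were above in 3 of 8 (Sox10, Isl1 and Th, and not Tubb3, Elavl3, Elavl4, Stmn2 and Rbfox3). Tubb3, at 7.86, 5.93 and 6.09 log2, lay 2.46, 0.47 and 0.68 log2 above the background of arrays 1, 2 and 3. It missed the threshold over all 3 arrays (limma, adjusted p = 0.061). The call was made without array 1 or array 3, the fits with 1 common SD, and not without array 2. Of the markers called, Wt1, Alas2, C1qc and Th lay only 0.18, 0.22, 0.22 and 0.18 log2 above background. Each of them lost its call without array 1 or array 3, and also with an SD floor and all 3 arrays kept. Wt1, Alas2 and Th were identical on all 3 arrays and C1qc had a range of 0.01 log2, so their signals hardly changed between these fits. What changed was limma's prior SD, which was 0.050 log2 in the main fit. Of all genes tested, 53.0% were above background in the same test. The bud and endothelial lists had a larger share. The metanephric mesenchyme, erythroid, and neuron and neural crest lists had a smaller one. The leukocyte list, at 50%, was close to the share of all genes. Whether the count of any list differs from the share of all genes was not tested. In a bulk sample, fewer cells of a type and less RNA per cell cannot be told apart.

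Of the 10 splicing regulators, 8 had a signal above background and 2, Rbfox1 and Rbm47, did not (limma, one-sided, Benjamini-Hochberg adjusted p under 0.05 over all genes). Over all genes tested the share above background was 53.0%. The median signal of the 10 genes lay 2.34 log2 above background. Of the 10 genes 5 held 1 identical deposited value on all 3 arrays, against 51.7% of all genes, and 3 more held 1 value on 2 of the arrays, against 28.7% of all genes. An identical value carries no measured spread, so for those genes the error of the test comes from the 3 background levels and from limma's prior. Signals of different probe sets are not set against each other, since each probe has its own binding strength.

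**Figure D1:**
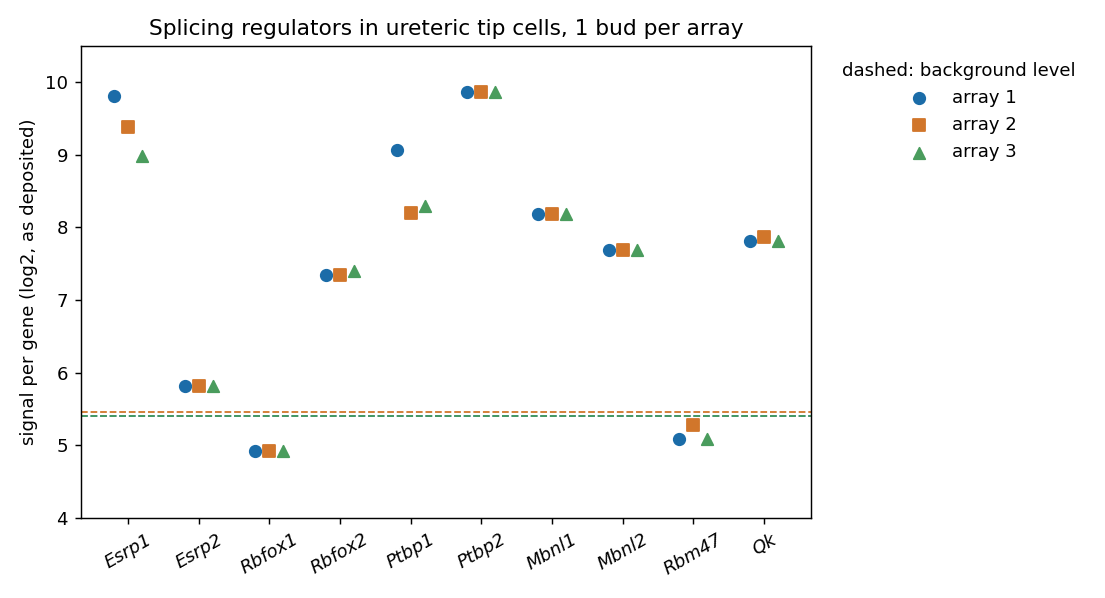
Signal of each of the 10 splicing regulators (x axis) on the log2 scale as deposited (y axis), with 1 symbol per array and the background level of each array as a dashed line. Esrp1 and Ptbp1 spread over 0.82 and 0.87 log2, Rbfox1 and Rbm47 lie under the dashed lines, and the other genes hold nearly 1 level on all 3 arrays.

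Esrp1, the main epithelial splicing regulator, had signals of 9.81, 9.38 and 8.99 log2 on arrays 1, 2 and 3. It was highest on array 1 and lowest on array 3, and no olfactory receptor probe set reached it on any of the arrays. Its mean of 9.39 ± 0.41 log2 (SD, n = 3) lay 3.97 log2 above background (limma, adjusted p = 6.80e-05). Its paralog Esrp2, which acts on many of the same exons, was at 5.82 log2, identical on all 3 arrays. That value lay 0.42, 0.36 and 0.41 log2 above the background of arrays 1, 2 and 3, a mean of 0.40 log2 (limma, adjusted p = 0.000159), and 21, 26 and 22 olfactory receptor probe sets were higher. With the 99th percentile of the olfactory receptors as background Esrp2 lay below it, by a mean difference of -0.25 log2, while Esrp1 stayed 3.33 log2 above. The call of Esrp2 was also lost against beta-defensins and keratin-associated proteins, and that of Esrp1 was kept in all 13 alternatives.

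Rbm47, the RNA-binding protein known from epithelia and gut, had signals of 5.08, 5.27 and 5.08 log2, all below the background of their arrays. Its mean of 5.15 ± 0.11 log2 (SD, n = 3) lay at -0.27 log2 from background (limma, adjusted p = 1), and 89, 74 and 99 olfactory receptor probe sets were higher on arrays 1, 2 and 3. The value on arrays 1 and 3 was also that of 78 and 91 other probe sets of those arrays. With vomeronasal receptors as background Rbm47 was above it by 0.33 log2 (limma, adjusted p = 0.0047, the lowest of its alternatives, which ran up to 1). Of Esrp1, Esrp2 and Rbm47, Esrp1 alone was above background in every alternative run.

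The RBFOX proteins activate or repress exons depending on which side they bind. Rbfox2, the broadly used member, had signals of 7.35, 7.35 and 7.40 log2, a mean of 7.36 ± 0.03 (SD, n = 3), which lay 1.95 log2 above background (limma, adjusted p = 3.07e-06). Rbfox1, known from neurons and muscle, was at 4.92 log2 on each of the 3 arrays, a mean difference of -0.50 log2 from background (limma, adjusted p = 1). On arrays 1, 2 and 3 there were 122, 131 and 128 olfactory receptor probe sets above Rbfox1, against 1 above Rbfox2 on each array. Rbfox3, the neuronal member of the family, was at 5.19 log2 on all 3 arrays and not above background either.

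The PTBP proteins bind pyrimidine-rich RNA and mostly repress exons. Ptbp1, the form of dividing and non-neuronal cells, had signals of 9.07, 8.20 and 8.30 log2, a mean of 8.53 ± 0.48 (SD, n = 3), which lay 3.11 log2 above background (limma, adjusted p = 0.000259). Array 1 was the highest, by 0.82 log2 over the mean of the others. Its level is the mean of 2 probe sets, at 9.24, 8.46 and 8.75 log2 for the first and 8.90, 7.95 and 7.85 for the second. Both were highest on array 1, while the lowest array was array 2 for the first and array 3 for the second. All 9 accessions listed for the second are among the 12 listed for the first. Whether either also binds a near-identical copy of the gene was not tested.

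Ptbp2, the paralog best known for its part in neuronal differentiation, was at 9.87 log2, identical on all 3 arrays. It lay 4.45 log2 above background (limma, adjusted p = 6.94e-07), and no olfactory receptor probe set was higher on any array. Ptbp3, the remaining member of the family, was at 10.37, 10.40 and 10.37 log2, 4.96 log2 above background (limma, adjusted p = 6.59e-07). All of the PTBP genes were above background in these bud cells.

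The MBNL proteins favour the splice forms of differentiated tissue. Mbnl1 was at 8.18 log2 and Mbnl2 at 7.68 log2, each identical on all 3 arrays. They lay 2.76 and 2.26 log2 above background (limma, adjusted p of 9.52e-07 and 1.38e-06). Mbnl3, their relative on the X chromosome, had signals of 5.42, 5.68 and 5.42 log2 and was not above background (limma, adjusted p = 0.185), though it was with the 90th percentile of the olfactory receptors or with vomeronasal receptors.

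Qk, which encodes a KH-domain protein known for myelin, smooth muscle and mesenchymal splicing, had signals of 7.82, 7.87 and 7.82 log2, 2.42 log2 above background (limma, adjusted p = 9.16e-07). This mean covers 3 probe sets with different signals, each with a range of at most 0.15 log2 over the arrays. The first, which lists 10 accessions, was at 9.65 log2 on all 3 arrays. The second was at 7.42 log2 on all 3 arrays and the third at 6.39, 6.53 and 6.39 log2. These other two list 1 accession each, the same one, which is not among those of the first. All 3 probe sets were above the background of every array, the third by 0.99, 1.08 and 0.98 log2. Taking the probe set with the highest mean put Qk 4.23 log2 above background in place of 2.42.

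**Figure D2:**
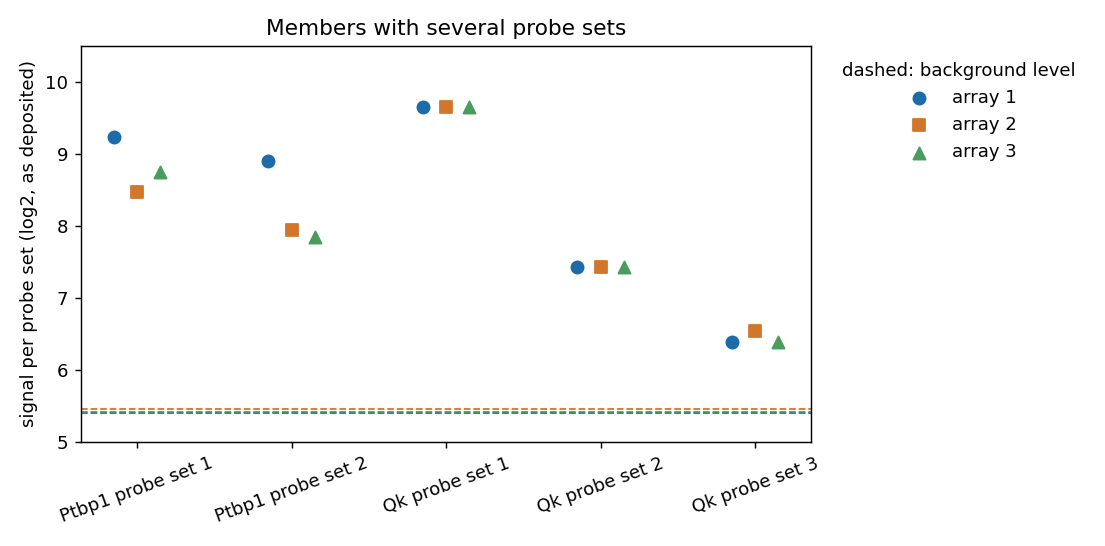
Signal of the single probe sets of Ptbp1 and Qk (x axis) on the log2 scale as deposited (y axis), with 1 symbol per array and the background level of each array as a dashed line. The 2 probe sets of Ptbp1 are both highest on array 1, and the 3 of Qk lie at means of 9.65, 7.42 and 6.44 log2.

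Promoters of broadly used genes are often rich in CpG dinucleotides, and those of tissue-restricted genes often are not. CpG content was not used to choose the genes, and it was counted after their values were seen. The RefSeq promoter table (build GRCm38.p6) held 11 windows for 7 of the 10 genes; Esrp1, Esrp2 and Rbfox2 are not among them. In the 250 bases before a start, the dinucleotide CG, which reads the same on both strands, occurred 17 times at Ptbp1, 23 at Ptbp2, 10 at Mbnl2 and 52 at Qk. At the starts of Mbnl1 it occurred 1 and 33 times. The genes not above background had 2 and 6 (Rbfox1) and 7, 11 and 1 (Rbm47). The median over all 32841 windows was 6, and 92.1% of them held at least 1 CG. It was 16 over 10649 windows of genes above background and 5 over 7658 windows of genes not above it, olfactory receptors left out. The windows of Ptbp2, both starts of Mbnl1 and both starts of Rbfox1 are shown, as windows with many and with few CGs from genes above and not above background, with each CG in capitals:
Ptbp2, chr3:119783389-119783638, minus strand: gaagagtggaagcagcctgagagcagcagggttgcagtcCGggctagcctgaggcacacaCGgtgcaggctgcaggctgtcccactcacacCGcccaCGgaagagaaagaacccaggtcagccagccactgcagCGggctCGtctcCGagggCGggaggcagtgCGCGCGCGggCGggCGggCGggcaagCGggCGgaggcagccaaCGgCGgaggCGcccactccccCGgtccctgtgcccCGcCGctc
Mbnl1 first start, chr3:60472580-60472829, plus strand: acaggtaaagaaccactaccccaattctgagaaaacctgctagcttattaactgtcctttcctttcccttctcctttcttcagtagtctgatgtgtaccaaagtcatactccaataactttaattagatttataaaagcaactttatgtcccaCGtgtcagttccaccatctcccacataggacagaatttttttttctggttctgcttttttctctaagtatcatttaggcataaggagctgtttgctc
Mbnl1 second start, chr3:60500929-60501178, plus strand: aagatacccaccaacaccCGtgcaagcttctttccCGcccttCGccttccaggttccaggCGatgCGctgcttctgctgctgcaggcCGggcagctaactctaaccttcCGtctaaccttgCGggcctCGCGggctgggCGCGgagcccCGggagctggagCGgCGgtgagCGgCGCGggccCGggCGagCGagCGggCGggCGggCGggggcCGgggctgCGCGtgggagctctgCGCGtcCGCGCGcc
Rbfox1 first start, chr16:5884543-5884792, plus strand: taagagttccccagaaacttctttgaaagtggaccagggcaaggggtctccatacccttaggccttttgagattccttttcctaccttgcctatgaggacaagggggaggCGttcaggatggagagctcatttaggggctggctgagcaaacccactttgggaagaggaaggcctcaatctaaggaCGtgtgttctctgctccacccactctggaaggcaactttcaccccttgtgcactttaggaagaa
Rbfox1 second start, chr16:7069585-7069834, plus strand: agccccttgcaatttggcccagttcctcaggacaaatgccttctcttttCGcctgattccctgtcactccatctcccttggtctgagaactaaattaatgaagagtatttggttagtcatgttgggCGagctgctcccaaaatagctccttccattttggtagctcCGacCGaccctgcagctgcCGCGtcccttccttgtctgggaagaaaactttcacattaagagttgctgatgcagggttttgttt

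In Ptbp2 19 of the 23 CGs, and at the second start of Mbnl1 25 of the 33, lie in the 125 bases next to the start. At the first start of Mbnl1 a single CG is left, and the array values do not tell the starts apart. The first start of Rbfox1 lies below the median of all windows and the second at it. These counts describe the sequences and name no factor that acts on them.

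Of the 10 genes, 2 had a range over 0.5 log2 between arrays, Esrp1 with 0.82 and Ptbp1 with 0.87 log2. Over all genes 8.38% had such a range, and 11.7% of the genes above background. A range larger than that of Esrp1 was found in 695 genes (3.49%) and one larger than that of Ptbp1 in 621 (3.11%). Each array is 1 bud, so the arrays were not tested against each other. Of the other 8 genes the widest range was 0.19 log2, for Rbm47.

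Both wide-ranging genes were highest on array 1. Array 1 was also the highest for 8 of 11 bud markers, for 13 of 30 core spliceosome genes and for 4 of 10 epithelial genes. The same held for 6 of 12 SR proteins and 6 of 21 hnRNP proteins. It held for only 4 of 24 other tissue-restricted regulators, 2 of 13 genes with ESRP-regulated exons and 0 of 6 EMT factors. The share was 19.8% of all genes above background and 12.3% of all genes, and several of these lists include genes not above background. On arrays 1, 2 and 3 the adhesion gene Cdh1 was at 7.80, 7.56 and 7.51 log2 and the keratin gene Krt8 at 10.77, 9.67 and 9.90 log2. Esrp1, Cdh1, Ret and Gfra1 fell in the same order of arrays, with array 3 the lowest, while Krt8 was lowest on array 2. Vim, an intermediate filament gene of mesenchyme and endothelium, had its highest value on array 3, at 8.47, 7.97 and 9.82 log2. Vim was the 1 of 12 mesenchymal genes highest on array 3, and 2 of them, Fn1 and Cdh2, were highest on array 1, as Esrp1 was. Zeb1, a repressor of epithelial genes, was at 5.14 log2 on arrays 1 and 2 and at 6.31 log2 on array 3.

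Where an endothelial, erythroid or neuron and neural crest marker was highest on 1 array, that was array 1 or array 3. The metanephric mesenchyme marker Cited1 was highest on array 2. Of the leukocyte markers, C1qc was highest on array 2 and Cd68 on array 3. Array 3, with the lowest Esrp1 signal, had the highest value of 7 of 10 endothelial markers. Array 1, with the highest Esrp1 and Ptbp1 signals, had the highest value of 2 endothelial markers, Cdh5 among them, of 3 of 7 erythroid markers, Hbb-y and Hba-x among them, and of 1 of 8 neuron and neural crest markers, Tubb3. The part of these other cells in the levels of Esrp1 and Ptbp1 was not tested.

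**Figure D3:**
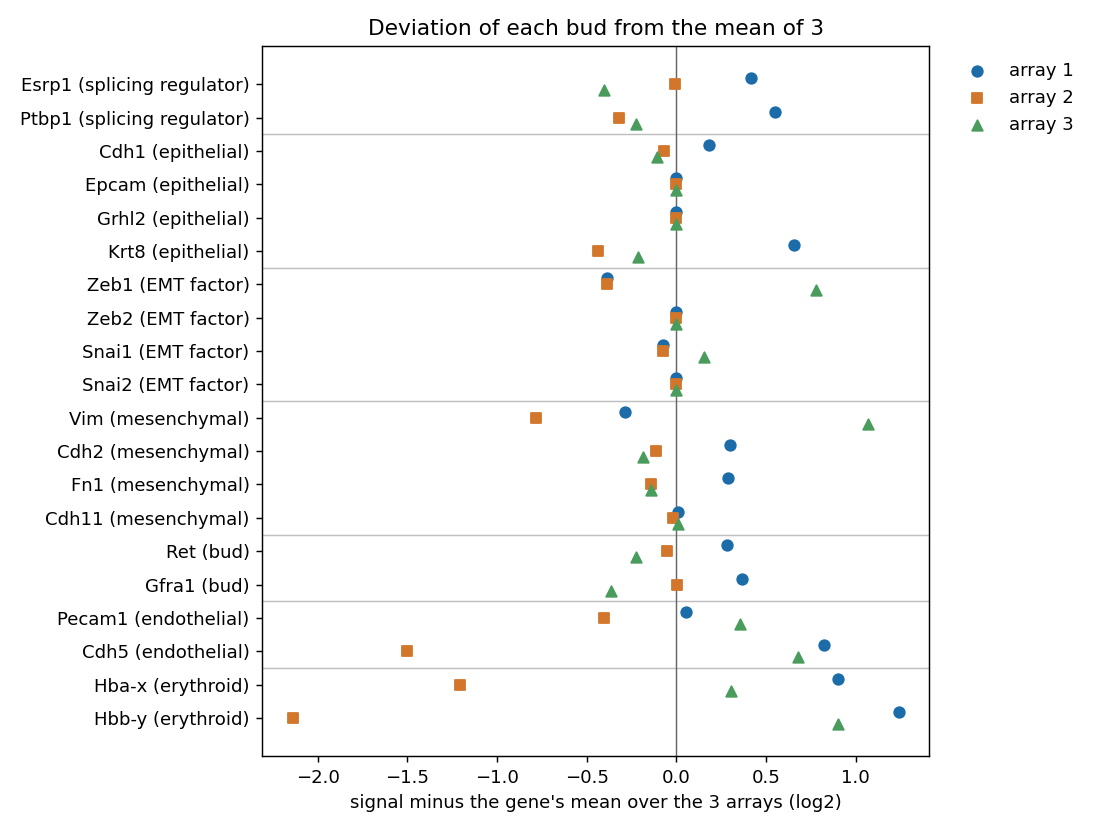
Signal of each gene on each array minus the mean of that gene over the 3 arrays (x axis, log2), for Esrp1, Ptbp1 and named genes of 6 other lists (y axis). Esrp1, Ptbp1, Ret, Cdh5, Hba-x and Hbb-y lie to the right on array 1, and Zeb1 and Vim on array 3. Pecam1, Cdh5, Hba-x and Hbb-y lie to the left on array 2.

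Among 24 other tissue-restricted splicing regulators 12 were above background, where all genes tested gave 53.0%. Celf1, a widely used regulator, was at 9.77, 9.69 and 9.70 log2, and Ptbp3 was above background as described, while Rbfox3 and Mbnl3 were not. The musashi gene Msi1, singled out after its values were seen, had signals of 8.28, 7.13 and 6.64 log2. That range of 1.64 log2 is wider than that of either Esrp1 or Ptbp1, with the arrays in the order seen for Esrp1. Without array 2 Msi1 was no longer above background (limma, adjusted p = 0.0747). The count for this list was 6 at the 99th percentile and 18 at the 90th, where 35.3% and 63.7% of all genes were called.

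The general splicing machinery was above background in nearly every measured gene. SR proteins, which bind exonic enhancers, were above in 11 of 12, with Srsf1 at 10.41, 10.41 and 10.26 log2, Srsf2 at a mean of 10.97, and Srsf12, at 4.88 log2 on all 3 arrays, the one not above. Srsf3 and Srsf4 were also above it, with means of 11.72 ± 0.06 and 9.05 ± 0.36 log2 (SD, n = 3). The hnRNP proteins, which mostly counteract SR proteins, were above in 21 of 21. Hnrnpa2b1, Hnrnpab and Hnrnpc had means of 12.17, 11.85 and 10.80 log2, but Hnrnpa0, at 5.60 log2 on all 3 arrays, lay only 0.18 log2 above background. It lost its call without array 1 or array 3 (limma, adjusted p of 0.181 and 0.168). Those fits gave every gene 1 common SD, while the signal of Hnrnpa0 was the same in all of them. Core spliceosome genes were above in 30 of 30, among them Snrpa at 8.38 log2 on all 3 arrays and Snrpa1, Snrpb and Snrpb2 at means of 10.03, 7.54 and 10.77 log2.

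**Figure D4:**
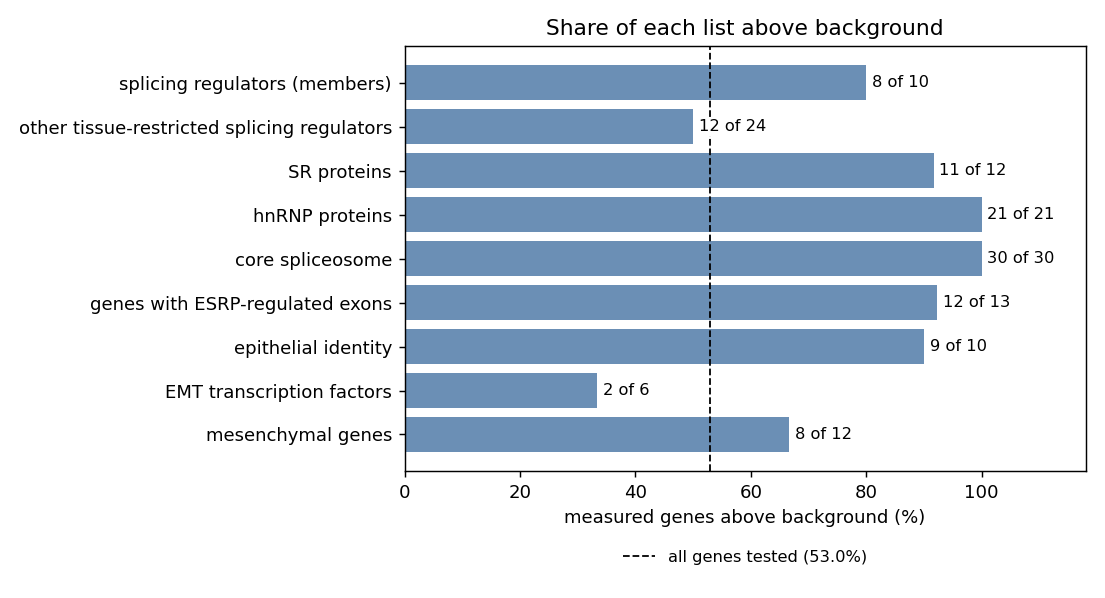
Percentage of the measured genes of each list above background (x axis) for the 10 splicing regulators and 8 other lists (y axis), with the counts beside the bars and the 53.0% of all genes tested as a dashed line. The bars of the general machinery lie between 91.7% and 100%, those of EMT transcription factors at 33.3%.

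Genes known to carry exons under ESRP control were above background in 12 of 13. Fgfr2, whose epithelial form binds ligands of the surrounding mesenchyme, was at 8.46, 8.46 and 8.13 log2. Ctnnd1, the p120 catenin gene, and Enah, an actin regulator, had means of 8.38 ± 0.01 and 7.98 ± 0.06 log2 (SD, n = 3). Cd44, a hyaluronan receptor gene with many variable exons, was the one not above background, at 4.42 log2 on all 3 arrays. The deposited values are 1 summary per probe set, so they give the level of these genes and not which exons were used.

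Epithelial identity genes were above background in 9 of 10, with Epcam at 9.27 log2 and the transcription factor Grhl2 at 7.87 log2, each identical on all 3 arrays, and Ovol1, at 5.08 log2, not above. Transcription factors of epithelial-mesenchymal transition (EMT) were above in 2 of 6. Snai1 was at 6.35, 6.35 and 6.58 log2 and Twist1 at 5.82 log2 on all 3 arrays. Zeb1, Zeb2, Snai2 and Twist2 did not pass, with means of 5.53, 5.14, 4.94 and 5.26 log2. Zeb1 passed without array 1 (limma, adjusted p = 0.0242) and not without array 2 or array 3 (adjusted p of 0.473 and 1). On arrays 2 and 3, the ones left in the first of these fits, it lay at -0.31 and 0.90 log2 from background. That fit gave every gene 1 common SD, so its p-value does not measure the spread of Zeb1. On arrays 1 and 2 the Zeb1 value was shared with 98 and 84 other probe sets of those arrays, Zeb2 among them. Mesenchymal genes were above background in 8 of 12, with Fn1 at 8.96, 8.53 and 8.53 log2, Cdh2 and Cdh11 at means of 6.60 and 6.19 log2, and without Pdgfra, Pdgfrb, Tcf21 and Foxd1.

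Moving the background moved the count of the 10 splicing regulators less than that of all genes. It was 8 at the 90th percentile of the olfactory receptors (63.7% of all genes called), 7 at the 99th (35.3%), 9 with vomeronasal receptors (65.8%) and 7 with beta-defensins and keratin-associated proteins (21.1%). The genes that changed their call were Esrp2 and Rbm47.

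**Figure D5:**
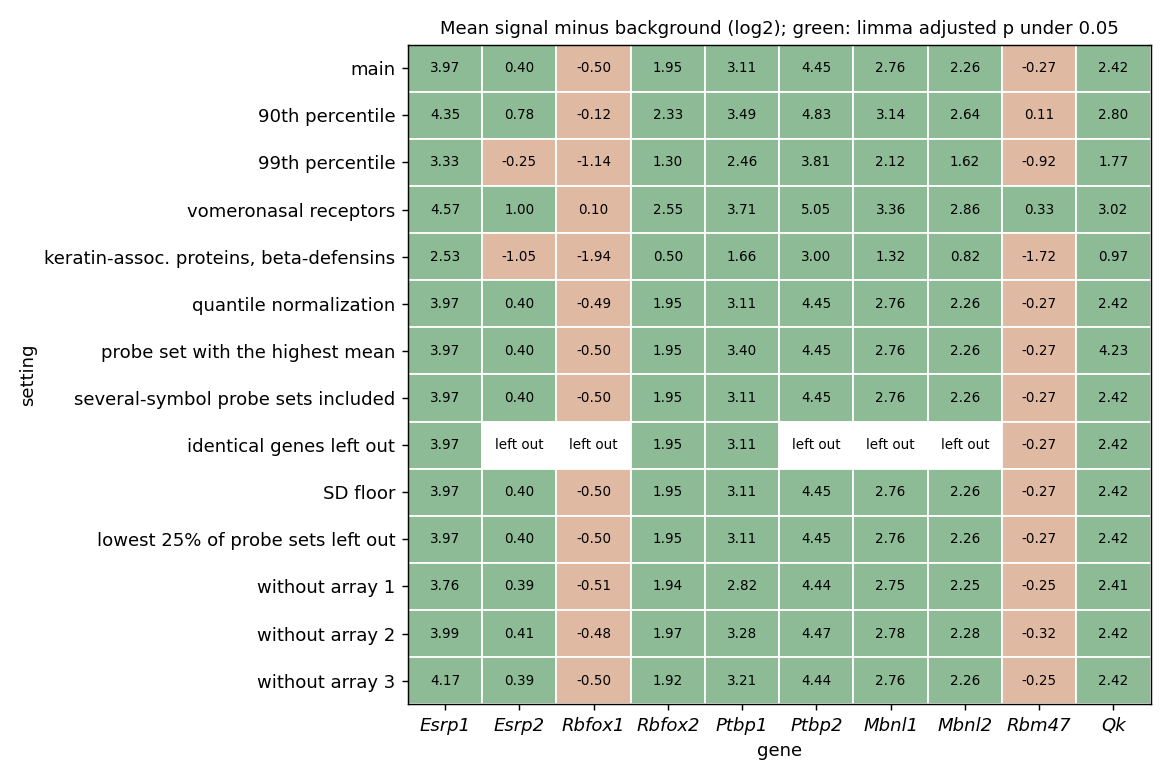
Mean signal minus background (log2, number in each cell) of the 10 splicing regulators (x axis) in the main setting and 13 alternatives (y axis), green where limma's adjusted p was under 0.05 and brown where it was not. Esrp1, Rbfox2, Ptbp1 and Qk are green in every row, Ptbp2, Mbnl1 and Mbnl2 wherever they were fitted, Esrp2 is brown in 2 rows and Rbm47 green in 1.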

How the data were processed

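The deposited table holds 1 log2 signal per probe set and array, and was used as deposited. The log base was inferred from the values, which run from 1.69 to 14.15. Per the submitters' processing notes, the authors used Affymetrix Expression Console. No version, background correction, normalization or probe summary is stated in the labels. The platform annotation named the probe sets; those with 1 symbol were kept and those of 1 gene averaged.

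An array's background was set at the 95th percentile of 1035 probe sets for olfactory receptors. For each of 19938 genes limma 3.58.1 (R 4.3.3) tested, one-sided, whether the mean of value minus background lay above 0, with Benjamini-Hochberg adjustment over all genes and a threshold of 0.05. Values within 1e-06 log2 were called identical. In simulated data for this test on 19938 genes, with SDs drawn from the genes that differed between arrays, 44.0% of 50 genes set 0.5 log2 above background were recovered, 68.0% at 1 log2, 92.0% at 2 log2 and 96.0% at 3 log2. Far fewer genes were set above background there than the 53.0% called in the data, and none held identical values. The recovery rates therefore need not hold for the fit of the real data. Array number limits the precision of every level.

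The 10 genes, the lists and the tests were chosen with earlier results of these data known. Named genes were all 10, the first 4 measured of each splicing, epithelial and mesenchymal list, the first 2 of each marker list, and all called or not called where these were 5 or fewer. The 13 alternatives are in the closing section. Protein sequences were not used here, so the planned comparison of paralogs was not made.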

Additional observations from a re-analysis of the deposited data

How the results depend on the processing

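No paired analysis was possible because the samples form 1 group. Of the 10 splicing regulators 8 were above background in the main setting and in each fit that left out 1 array. The count was also 8 with the 90th percentile, quantile normalization, the highest probe set or several-symbol probe sets. An SD floor and a filter on the lowest 25% of probe sets left it at 8 as well. The count was 4 of 5 with identical genes left out, which removes 5 of the 10, and 7 at the 99th percentile or with beta-defensins and keratin-associated proteins as background, where Esrp2 lay at -0.25 and -1.05 log2 from background. It was 9 with vomeronasal receptors, where Rbm47 lay at 0.33 and Rbfox1 at 0.10 log2, the second not called, and at the 90th percentile Rbm47 lay at 0.11 log2, not called.

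With identical genes left out fewer genes were tested, and the counts were 7 of 12 other tissue-restricted regulators, 6 of 6 genes with ESRP-regulated exons, 1 of 3 EMT factors and 4 of 4 mesenchymal genes. With beta-defensins and keratin-associated proteins as background, which called 21.1% of all genes, these counts were 4, 7, 0 and 2; for the EMT factors limma gave 0 also at an unadjusted p under 0.05. The 99th percentile, which called 35.3% of all genes, left 6 other tissue-restricted regulators and 1 EMT factor. The EMT count was 4 at the 90th percentile and 5 against vomeronasal receptors, which called 63.7% and 65.8% of all genes. Without array 1, 2 or 3 no count moved by more than 1.5 times. Signal close to background limits the calls of Esrp2, Rbm47, Rbfox1 and the EMT factors. The same holds for Hnrnpa0 and for the markers Wt1, Alas2, C1qc and Th.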

Other observations

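Many probe sets of an array held exactly the value of another probe set. This concerned 52.6%, 50.9% and 52.5% of the 35557 probe sets on arrays 1, 2 and 3, which held 19073, 19552 and 19024 distinct values. Among the splicing regulators, the values of Esrp1, Ptbp2 and the first probe set of Qk occurred in no other probe set of their array. The value of Esrp2 was held by 2 others on each array, that of Rbfox2 by 5, 4 and 0 on arrays 1, 2 and 3, that of Mbnl2 by 3, 0 and 2, and that of the second Qk probe set by 5, 7 and 3. The value of Rbfox1 was held by 5, 6 and 7 others on arrays 1, 2 and 3, and that of Rbm47 by 78 others on array 1, 0 on array 2 and 91 on array 3. Snai1 shared its value with 54 and 57 other probe sets on arrays 1 and 2 and with 0 on array 3, where it was higher. For Rbm47, Zeb1 and Snai1 the difference of 1 array from the other two is a step away from a value that at least 54 other probe sets of an array held. The step in the authors' processing that gave these shared values is not stated in the labels, and its part in the differences was not tested.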
